A study of Mus musculus with 7 samples.

Results

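The subject is the TGF-beta and BMP superfamily in mouse colon after repeated TNBS enemas. Its members were the genes whose platform symbol begins with Tgfb, Ltbp, Bmp, Gdf, Inhb, Acvr or Smad, together with Nbl1, Fst, Grem1 and Eng. This gave 51 genes on 63 probe sets, of 8251 genes on the array. By role they were 21 ligands, 4 latent TGF-beta binding proteins, 12 receptors and co-receptors, 7 Smads and 3 antagonists. The other 4 are named for the family but have none of these roles (Bmp1, Bmp2k, Tgfb1i1 and Tgfbi). A member was called measured when its signal reached 100 in at least 1 pool, which held for 17 members (33.3%), against 52.3% of all genes. Signals are probe set intensities on a linear scale, printed as deposited, and readings under a floor of 50 were set to 50 before any fold or log2 difference was taken.

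All mice were female CD-1 outbred animals, 10 to 12 weeks old when the experiment began, and the tissue was colon from 4 ± 0.5 cm above the anus. TNBS (trinitrobenzene sulphonic acid) is a hapten that provokes colitis, and it was given as 6 enemas in ethanol. RNA was pooled within each group before labelling. TNBS-w6 combined 6 mice taken 3 days after the last enema, TNBS-w8 4 mice taken at 2 weeks, TNBS-w10 5 mice taken at 4 weeks and TNBS-w12 4 mice taken at 6 weeks. Saline-w6 combined 5 saline-treated mice taken at 3 days, and this pool was run on 2 arrays. Saline-w10 combined 4 saline-treated mice, of which 2 were taken at 2 weeks and 2 at 4 weeks. Ethanol was given only with TNBS, so both cannot be told apart, and TNBS-w12 had no saline mice of its own time. Following the series' design, TNBS-w6 was set against Saline-w6 and the 3 later TNBS pools against Saline-w10.

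Ligands of this superfamily bind pairs of type I and type II receptor kinases, which phosphorylate receptor-regulated Smads. These join Smad4 and enter the nucleus, while Smad6 and Smad7 dampen the signal. TGF-beta is secreted in a latent form that latent binding proteins tie to the matrix. Secreted antagonists such as Nbl1, Grem1 and Fst hold BMPs or activins away from their receptors. In the gut, BMP signals limit crypt stem cells, and TGF-beta restrains immune cells and drives matrix production.

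The arrays were of similar brightness, with median signals of 51.7 to 61.1. The log2 signals of any array pair had correlations across probe sets of 0.953 to 0.987, the highest being that of both Saline-w6 arrays. Of 16 colon epithelium markers on the array, 14 were measured, and only Guca2a was under 50 on all 7 arrays. Pancreatic enzyme markers (7 of 7 measured) summed to 6302 and 8753 in the TNBS-w6 and TNBS-w8 pools, against 2277 to 2842 on the other 5 arrays. Leukocyte and macrophage markers (10 of 14 measured, with Fcer1g, Adgre1 and Itgam under 50 throughout) summed to 7648 in TNBS-w6, against 4195 and 3480 on the Saline-w6 arrays. Their sums were 4193, 4934 and 4286 in the later TNBS pools, against 3586 in Saline-w10. The part of these other cells in the results below was not tested.

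In the TNBS-w6 pool the antagonist Nbl1 was 3.17-fold and the latent binding protein Ltbp4 2.23-fold lower than in Saline-w6. In the TNBS-w8 pool the receptor Acvr2b was 2.99-fold and Ltbp4 2.09-fold lower than in Saline-w10. No member was 2-fold higher in any of the 4 comparisons, and in the TNBS-w10 and TNBS-w12 pools no member differed 2-fold in either direction. At week 6 the 2 of 17 members 2-fold lower compare with 0.996% of 4316 measured genes, the 0 of 17 higher with 2.55%, and the 2 of 17 in either direction with 3.54%. At week 8 the 2 of 17 lower compare with 1.78% of genes, the 0 of 17 higher with 1.53%, and the 2 of 17 in either direction with 3.31%. At week 10 the 0 of 17 compare with 0.834% of genes higher, 0.649% lower and 1.48% in either direction. At week 12 the 0 of 17 compare with 0.718% higher, 0.88% lower and 1.6% in either direction. Bmpr1a and Ltbp3 reached the signal minimum through TNBS pools alone and through a saline pool alone, so they had to differ in some comparison. These comparisons set 1 pool against 1 pool and have no test. In pooled tissue, fewer cells of a type and less RNA per cell cannot be told apart.

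The saline arrays give a measure of the spread without TNBS. Both arrays of the Saline-w6 pool, which share their RNA, differed 2-fold for 0 of 17 members and for 0.718% of genes (0.348% higher and 0.371% lower on the first array). Their log2 differences had an SD of 0.29 over all genes. Saline-w10 and Saline-w6 differed 2-fold for 0 of 17 members and for 1.81% of genes (0.857% higher and 0.95% lower in Saline-w10). Nbl1 was the nearest member, at 1.93-fold lower in Saline-w10 than in Saline-w6.

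**Figure D1:**
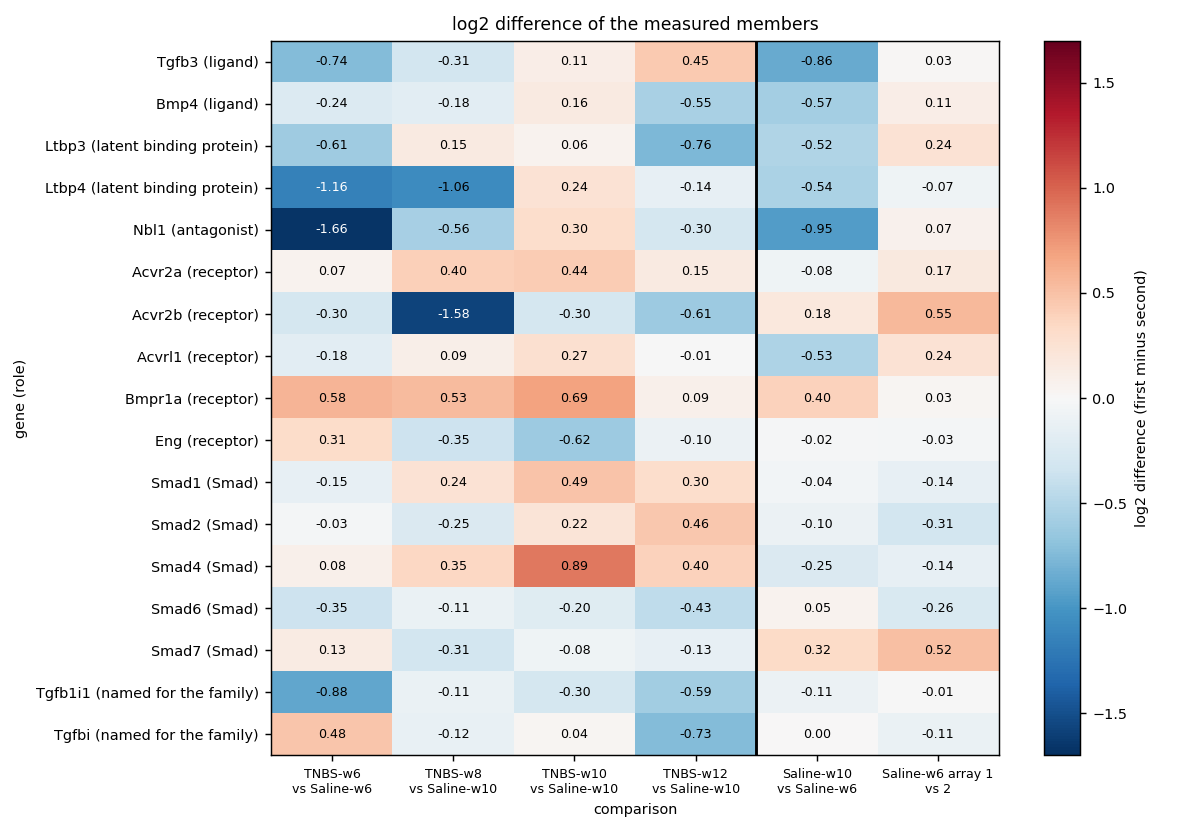
Log2 differences (first minus second named pool) of the 17 measured members in the 4 matched comparisons, with the difference between saline pools and between both Saline-w6 arrays to the right of the black line. The darkest blue cells are Nbl1 at week 6 (-1.66) and Acvr2b at week 8 (-1.58), and the strongest red cell is Smad4 at week 10 (0.89).

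The promoter windows of the 3 members that differed 2-fold are shown because they are the genes on which the lower readings rest. They run from 250 bases before to 50 bases after the annotated start, 5′ to 3′ on the gene's strand, from RefSeq on GRCm38.p6. They lie at chr4:139092921-139093220 (minus strand) for Nbl1, chr7:27337563-27337862 (minus strand, the first of 3 listed windows) for Ltbp4 and chr9:119401928-119402227 (plus strand) for Acvr2b. Capitals mark a match to any of the motifs searched.
Nbl1: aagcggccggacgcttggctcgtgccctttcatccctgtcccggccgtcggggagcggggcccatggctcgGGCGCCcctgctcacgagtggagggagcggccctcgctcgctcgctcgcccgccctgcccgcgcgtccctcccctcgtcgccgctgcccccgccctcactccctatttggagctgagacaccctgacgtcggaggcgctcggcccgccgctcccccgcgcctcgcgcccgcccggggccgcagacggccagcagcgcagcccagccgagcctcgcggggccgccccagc
Ltbp4: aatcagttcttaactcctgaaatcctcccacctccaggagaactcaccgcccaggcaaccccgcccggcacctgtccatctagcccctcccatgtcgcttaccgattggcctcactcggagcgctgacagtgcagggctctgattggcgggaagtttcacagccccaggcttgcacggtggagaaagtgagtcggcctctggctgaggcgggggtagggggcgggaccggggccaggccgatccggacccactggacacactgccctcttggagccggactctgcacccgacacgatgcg
Acvr2b: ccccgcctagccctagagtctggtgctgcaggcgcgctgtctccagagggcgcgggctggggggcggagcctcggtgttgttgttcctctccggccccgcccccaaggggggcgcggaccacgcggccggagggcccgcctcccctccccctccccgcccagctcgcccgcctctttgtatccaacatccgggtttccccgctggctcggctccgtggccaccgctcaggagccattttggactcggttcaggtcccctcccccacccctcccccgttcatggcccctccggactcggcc
The motifs, searched on both strands, were CAGACA (a Smad3 and Smad4 box), GTCTAGAC (a palindromic Smad element, whose arms overlap that box in their letters), GGCGCC (a GC-rich element known from BMP-responsive genes) and the CArG box of serum response factor. Only GGCGCC matched, once, in the Nbl1 window, and 11.9% of 32851 promoter windows hold it. Of the 17 measured members 11 had a window in the table. GGCGCC occurred in 3 of them (Bmpr1a, Nbl1, Tgfbi), CAGACA in 1 (Ltbp3; 21.0% of all windows), GTCTAGAC in 1 (Smad6; 0.213%) and the CArG box in 0 (1.63%). These are matches of letters and not sites of binding.

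Among the ligands only Tgfb3 and Bmp4 were measured, 2 of 21. Tgfb3, a TGF-beta isoform, had signals of 114.7, 85.5, 114.7 and 144.9 in the TNBS-w6, TNBS-w8, TNBS-w10 and TNBS-w12 pools, against 193.5 and 190.1 on the Saline-w6 arrays and 106.0 in Saline-w10. The Saline-w6 arrays stood above every other array, and the Saline-w10 reading fell among the TNBS readings. Tgfb3 was thus 1.67-fold lower at week 6 and 1.37-fold higher at week 12 than the matched saline pool. Its second probe set lay under 50 on all arrays.

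Bmp4, a BMP made by gut stroma, had 133.4, 93.6, 118.0 and 72.3 in the TNBS pools of weeks 6, 8, 10 and 12, against 163.4 and 151.3 on the Saline-w6 arrays and 105.8 in Saline-w10. The week 12 reading was the lowest of the 7, at 1.46-fold below Saline-w10. A second Bmp4 probe set was 0.30 lower on the log2 scale at week 12 but 0.21 higher at week 6, where the chosen one was 0.24 lower.

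Both measured latent binding proteins tie TGF-beta complexes to matrix fibres. Ltbp4 had 200.3, 146.8, 362.1 and 277.9 in the TNBS pools of weeks 6, 8, 10 and 12, against 435.7 and 456.7 on the Saline-w6 arrays and 306.8 in Saline-w10. The week 6 and week 8 TNBS readings lay below all others, the week 10 reading lay between the saline pools, and the week 12 reading lay just under Saline-w10. The log2 differences were -1.16, -1.06, 0.24 and -0.14. With log2(value + 50) in place of a floor Ltbp4 was under 2-fold at both times, and with equal array medians or quantile normalization it was under 2-fold at week 8.

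Ltbp3 had 79.6, 94.0, 88.4 and 48.8 in the TNBS pools of weeks 6, 8, 10 and 12, against 131.9 and 111.4 on the Saline-w6 arrays and 84.7 in Saline-w10. It passed the signal minimum of 100 through Saline-w6 alone, so it had to be lower elsewhere. At week 12 it lay under the floor of 50 and was at least 1.69-fold lower than Saline-w10. Ltbp1 and Ltbp2 were under 50 on all arrays.

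Nbl1, also known as DAN, was the only antagonist measured. It had 84.3, 93.9, 170.3 and 112.9 in the TNBS pools of weeks 6, 8, 10 and 12, against 273.9 and 260.9 on the Saline-w6 arrays and 138.6 in Saline-w10. The repeat arrays differed by 1.05-fold, and all TNBS readings were below both. The Saline-w10 reading was also far below the Saline-w6 arrays, inside the range of the TNBS pools. The log2 difference was -1.66 at week 6, -0.56 at week 8, 0.30 at week 10 and -0.30 at week 12. Beta-actin has control probe sets near either end of its transcript, and the quotient of 3′ over 5′ signal reflects RNA integrity and labelling. This quotient was 1.24 in TNBS-w6, against 1.14 and 1.23 on the Saline-w6 arrays, and 0.801 to 0.818 in the later TNBS pools, against 0.798 in Saline-w10. The beta-actin quotient moved with the difference between the saline pools, and its part in that difference was not tested. Gapdh has such control probe sets too, and its quotient did not separate week 6 from later arrays. It was 0.935 in TNBS-w6 and 0.912 and 0.942 on the Saline-w6 arrays. In TNBS-w8, TNBS-w10 and TNBS-w12 it was 1.004, 0.977 and 0.869, against 0.897 in Saline-w10. Fst, which binds activins, and Grem1, which binds BMPs, were under 50 on all arrays, with highest readings of 11.1 for Fst, in TNBS-w8, and 41.9 for Grem1, in TNBS-w6.

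Of 12 receptors and co-receptors 5 were measured. Acvr2b, a type II receptor for activins and some BMPs, had 116.7, 54.4, 132.0 and 106.2 in the TNBS pools of weeks 6, 8, 10 and 12, against 173.4 and 118.4 on the Saline-w6 arrays and 162.6 in Saline-w10. The week 8 pool stood alone near the floor, while the week 10 reading lay between both Saline-w6 readings. Those arrays of 1 RNA pool differed by 1.46-fold, the largest such gap among the 17 members. With a floor of 100 the week 8 log2 difference was -0.70 in place of -1.58.

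Acvr2a, the related activin receptor, had 161.6, 193.4, 197.9 and 162.4 in the TNBS pools of weeks 6, 8, 10 and 12, against 163.5 and 145.7 on the Saline-w6 arrays and 146.1 in Saline-w10. Its differences were 0.07, 0.40, 0.44 and 0.15 on the log2 scale, all under 1.5-fold. A second Acvr2a probe set lay under 50 on all arrays. At week 6 the TNBS reading lay between both Saline-w6 readings, and against the first of those arrays alone the difference was -0.02. At weeks 8, 10 and 12 Acvr2a was above and Acvr2b below Saline-w10, a contrast that was not tested.

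Bmpr1a, a type I receptor for BMPs, had 75.6, 96.3, 107.2 and 70.8 in the TNBS pools of weeks 6, 8, 10 and 12, against 51.0 and 40.5 on the Saline-w6 arrays and 66.5 in Saline-w10. All 4 TNBS readings were above the 3 saline readings. Its log2 differences were 0.58, 0.53, 0.69 and 0.09, the first of them against a pool with 1 of 2 arrays under the floor. It reached the signal minimum through the TNBS-w10 pool alone, and a floor of 100 left log2 differences of 0.00, 0.00 and 0.10 in the first 3 comparisons.

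Acvrl1 and Eng, a type I receptor and its co-receptor endoglin, are best known from endothelium. Eng had 350.0, 218.4, 180.8 and 258.9 in the TNBS pools of weeks 6, 8, 10 and 12, against 278.8 and 285.5 on the Saline-w6 arrays and 278.1 in Saline-w10. The 3 saline readings lay close together, the week 6 TNBS reading was above them and the later TNBS readings were below. The log2 differences were 0.31, -0.35, -0.62 and -0.10. Acvrl1 had 148.7, 124.7, 141.3 and 115.9 in the TNBS pools of weeks 6, 8, 10 and 12, against 183.4 and 154.8 on the Saline-w6 arrays and 116.9 in Saline-w10. Its 3 probe sets disagreed in sign at weeks 8 and 10, where the chosen one was at 0.09 and 0.27. The others were at -0.26 and -0.42 at week 8 and at -0.18 and -0.14 at week 10. None of 9 endothelial markers reached 100 in any pool, with Kdr, Flt1, Tek and Icam2 under 50 throughout. Their sum was 428, 296, 381 and 311 in the TNBS pools of weeks 6, 8, 10 and 12, against 392, 394 and 306 on the saline arrays, and their part in the Eng readings was not tested.

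**Figure D2:**
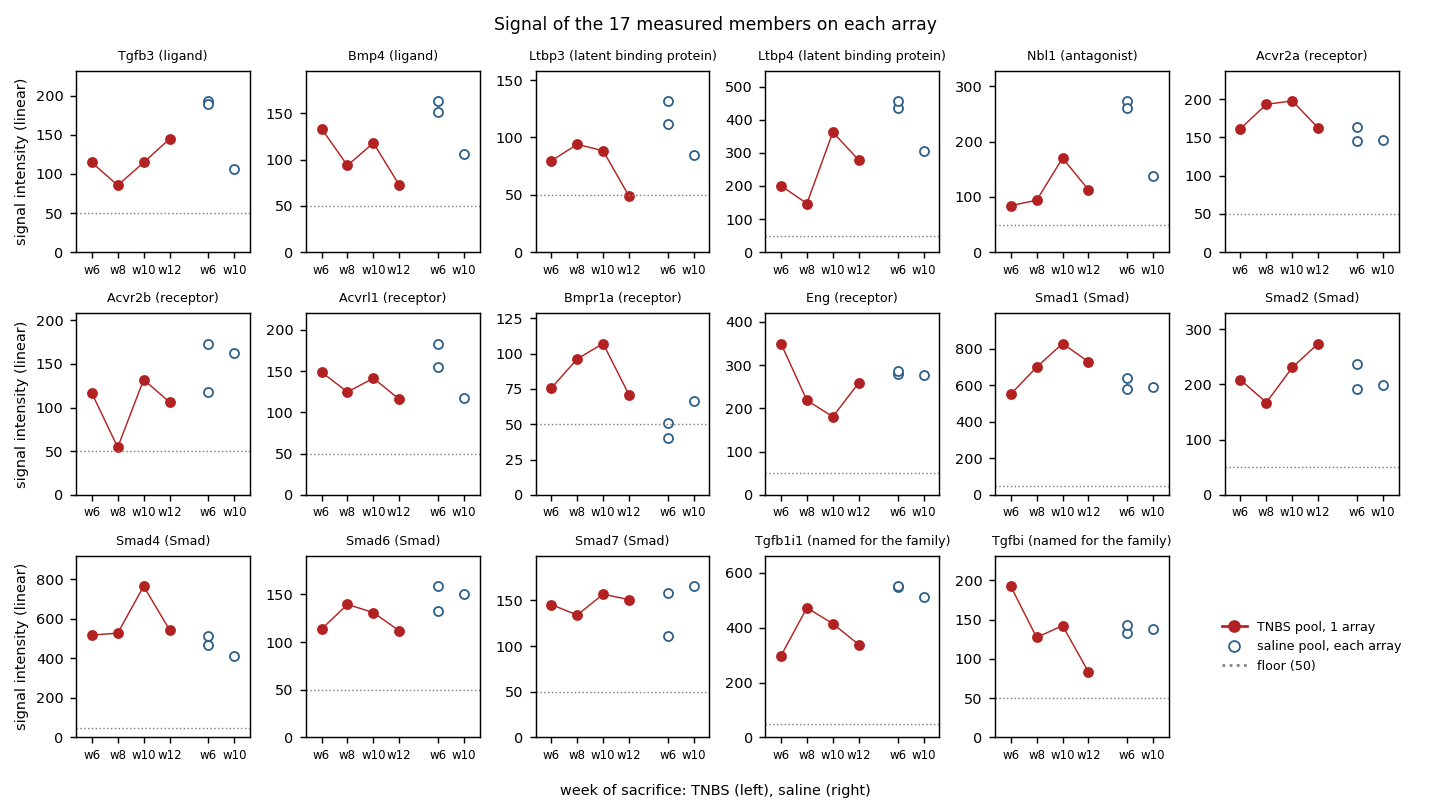
Signal intensity (linear axis from 0) of each measured member on each of the 7 arrays, with TNBS pools as filled points joined in order of week and saline arrays as open points, and the floor of 50 dotted. The 2 Saline-w6 points show the repeat of 1 RNA pool. Nbl1, Tgfb3 and Ltbp4 have their highest points on the Saline-w6 arrays, and Smad4 has its highest, 764.1, in TNBS-w10.

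Of the 7 Smads 5 were measured. Smad4, the shared partner of the receptor-regulated Smads, had 517.4, 527.0, 764.1 and 543.3 in the TNBS pools of weeks 6, 8, 10 and 12, against 465.5 and 514.7 on the Saline-w6 arrays and 412.2 in Saline-w10. Every TNBS reading was above every saline reading, at week 6 by less than the repeat arrays differed. It was 1.85-fold higher at week 10 than in Saline-w10, the highest difference among members, and 1.28-fold and 1.32-fold higher at weeks 8 and 12. With equal array medians it passed 2-fold at week 10.

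Smad1, which carries BMP signals, had 550.0, 698.2, 827.1 and 727.1 in the TNBS pools of weeks 6, 8, 10 and 12, against 579.6 and 638.2 on the Saline-w6 arrays and 589.9 in Saline-w10. The 3 later TNBS readings were above all saline readings. The log2 differences were -0.15, 0.24, 0.49 and 0.30, and those of its second probe set 0.01, 0.12, 0.27 and 0.20.

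Smad2, which carries TGF-beta and activin signals, had 208.3, 167.2, 230.7 and 274.0 in the TNBS pools of weeks 6, 8, 10 and 12, against 191.1 and 237.7 on the Saline-w6 arrays and 198.6 in Saline-w10. Only the week 12 reading was above and the week 8 reading below all saline readings. Smad6 and Smad7 are the inhibitory Smads. Smad6 had 113.6, 139.5, 131.0 and 111.8 in the TNBS pools of weeks 6, 8, 10 and 12, against 132.7 and 158.6 on the Saline-w6 arrays and 150.6 in Saline-w10. The week 8 reading was inside the saline range and the others were below it, and it lay at log2 differences of -0.35, -0.11, -0.20 and -0.43 in the successive comparisons, and at week 8 its sign turned with equal array medians (0.06). Smad7 had 145.4, 133.8, 156.7 and 150.7 in the TNBS pools of weeks 6, 8, 10 and 12, against 158.4 and 110.7 on the Saline-w6 arrays and 165.4 in Saline-w10, so all TNBS readings fell within the saline range. Smad3 and Smad5 were not measured, with highest readings of 20.8 and 55.4.

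Tgfb1i1 (Hic-5), a focal adhesion protein abundant in smooth muscle, had 297.6, 472.6, 414.8 and 338.6 in the TNBS pools of weeks 6, 8, 10 and 12, against 547.3 and 551.3 on the Saline-w6 arrays and 510.7 in Saline-w10. All TNBS readings were below all saline readings, and the saline pools differed by 1.08-fold. The log2 differences were -0.88, -0.11, -0.30 and -0.59, of which that at week 8 turned to 0.06 with equal array medians. Smooth muscle markers (8 of 8 measured) had median log2 differences of -0.22, 0.11, -0.09 and -0.36. Their sum was 14881, 20708, 18329 and 14051 in the TNBS pools of weeks 6, 8, 10 and 12, against 17522, 16919 and 18238 on the saline arrays. Tgfb1i1 and this sum were both lowest in the week 6 and week 12 pools. At weeks 8 and 10 the sum was above all saline arrays, while Tgfb1i1 was below all of them. The part of smooth muscle in the Tgfb1i1 readings was not tested.

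Tgfbi, a secreted matrix protein named for its induction by TGF-beta, had 192.5, 127.3, 142.3 and 83.3 in the TNBS pools of weeks 6, 8, 10 and 12, against 133.1 and 143.7 on the Saline-w6 arrays and 138.6 in Saline-w10. It was above saline at week 6 (1.39-fold) and below at week 12 (1.66-fold), while the week 8 and week 10 readings were near saline. Its second probe set lay under 50 on all arrays.

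Counted without regard to size, 3 of 17 members had TNBS arrays that did not overlap the saline arrays (Bmpr1a and Smad4 above, Tgfb1i1 below), against 11.1% of genes. By direction this was 2 of 17 above, against 4.94% of genes, and 1 of 17 below, against 6.12%. Bmpr1a passed the signal minimum only through a TNBS pool, in which it is high, so its place above saline is no support for the count. The count was 2 with a floor of 100 (Smad4 and Tgfb1i1), 2 with quantile normalization (Bmpr1a and Tgfb1i1) and 1 with equal array medians (Bmpr1a), so none of these members stood apart under all 3 settings.

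The other 34 members did not reach 100 in any pool. Of these, 23 were under 50 on all 7 arrays, among them Tgfb1 (at most 8.3), Tgfb2, Tgfbr1, Tgfbr2 (at most 7.4), Acvr1, Bmp6, Gdf11, Inhba and Inhbb. A low reading of a probe set does not show that the transcript is absent, since detection calls were not used. The other 11 were above 50 on 1 to 6 arrays (Inhbc, Bmp1, Gdf9, Acvr1b, Bmp7, Tgfbr3, Bmp5, Bmp2, Gdf10, Smad5 and Bmpr2). Inhbc, an activin subunit with 99.3 as its highest reading, was nearest to the minimum from below, and Bmpr1a, with 107.2, nearest from above. Dropping the signal minimum could add no member at 2-fold, since pools under 100 with a floor of 50 always differ by less.

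Several member differences depended on which saline pool was used. Set against Saline-w10, the TNBS-w6 pool differed 2-fold from saline for 0 of 17 members, against 4.63% of genes, with Nbl1 at -0.72 and Ltbp4 at -0.62 on the log2 scale. Set against Saline-w6, the TNBS-w8 pool was 2-fold lower for 4 members (Acvr2b, Ltbp4, Nbl1 and Tgfb3) and the TNBS-w12 pool for 3 (Bmp4, Ltbp3 and Nbl1), against 3.22% of genes at week 8 and 2.02% at week 12. In the TNBS-w10 pool Bmpr1a was then the 1 member 2-fold higher, against 1.78% of genes. Ltbp3 passed the signal minimum through Saline-w6 alone and Bmpr1a through TNBS-w10 alone, so their part in these counts was built in and is no support. The TNBS-w12 reading of Ltbp3 also lay under the floor. With the other saline pool 5, 3, 7 and 2 of 17 members lay on the other side of 0 at weeks 6, 8, 10 and 12. Acvr2b at week 8 was 2-fold lower against either pool, at -1.58 and -1.40, as was Ltbp4, at -1.06 and -1.60. Tgfb1i1 was below and Bmpr1a and Smad4 above both saline pools at every time. This follows from their TNBS arrays not overlapping the saline arrays, which held for 11.1% of genes, and is no further result. With equal array medians only Bmpr1a, measured through a TNBS pool alone, still stood apart.

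**Figure D3:**
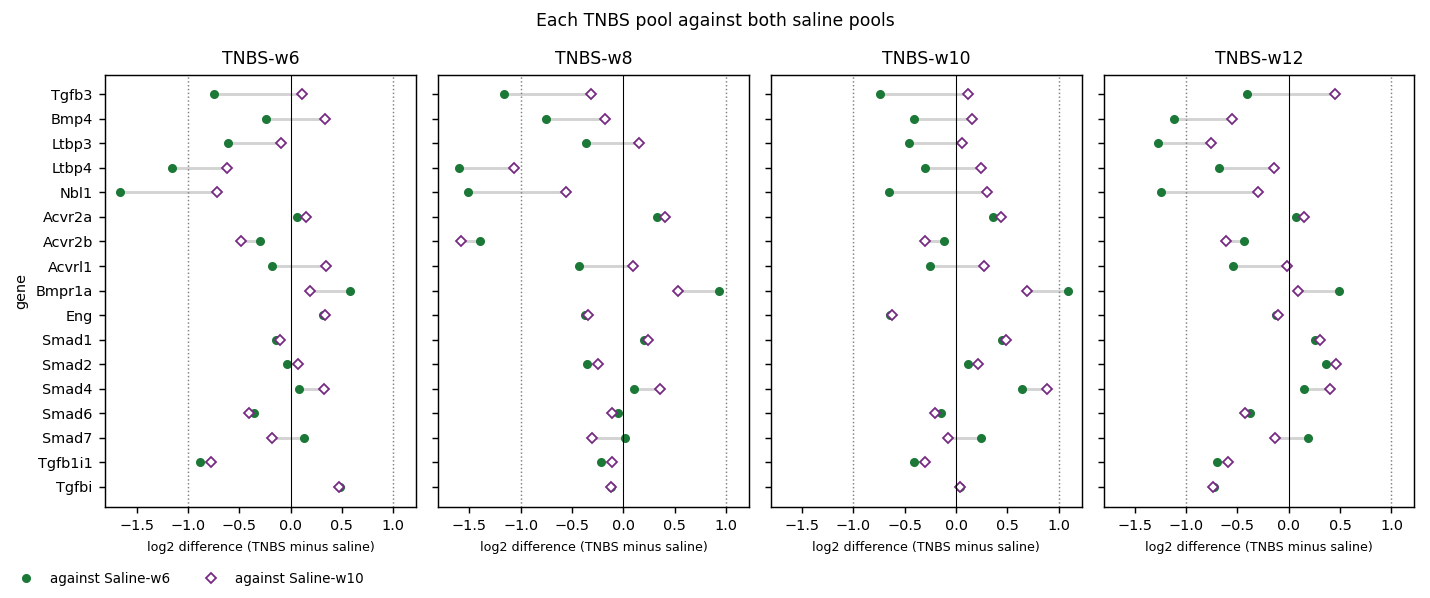
Log2 difference of each TNBS pool from Saline-w6 (filled circles) and from Saline-w10 (open diamonds) for the 17 measured members, with 2-fold dotted and a grey line joining both values. The long lines of Nbl1, Tgfb3, Bmp4, Ltbp3, Ltbp4 and Acvrl1 show the members that differ most between saline pools, while Eng, Smad1, Tgfb1i1 and Tgfbi have short ones.

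A limma fit set the 4 TNBS pools against the 2 saline pools with the control set (week 6 or later) as a covariate. TNBS pools of different times stand in as replicates there, so change over time is part of the spread. No member passed an adjusted p of 0.05, and no gene did (0% of 4316). At an unadjusted p of 0.05 it was 1 of 17 members, Tgfb1i1, against 5.1% of genes. The fitted Tgfb1i1 difference was -0.55 on the log2 scale (SE 0.21), with lower values in 4 of 4 comparisons and a limma adjusted p of 0.887. The later comparisons share the Saline-w10 pool and are not independent, and the week 8 value of Tgfb1i1 turned to 0.06 with equal array medians. The fitted differences were -0.78 for Nbl1 (SE 0.37), -0.66 for Ltbp4 (SE 0.36), -0.62 for Acvr2b (SE 0.36), 0.50 for Bmpr1a (SE 0.28) and 0.36 for Smad4 (SE 0.21), each with the same limma adjusted p of 0.887. Single pools carried much of these values. Without TNBS-w6, which leaves only the later TNBS pools against Saline-w10, the fitted difference was -0.19 for Nbl1 and -0.32 for Ltbp4. For Tgfb1i1 it was then -0.33 and for Smad4 0.55. Without Saline-w10, which leaves week 6 as the only time with a control, it was -1.66 for Nbl1, -1.16 for Ltbp4, -0.88 for Tgfb1i1, -0.30 for Acvr2b and 0.08 for Smad4. Without TNBS-w8 it was -0.39 for Acvr2b.

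The term for a TNBS difference at week 6 unlike that of the later weeks was also fitted with limma and passed for 0 of 17 members and 0% of 4308 genes. At an unadjusted p of 0.05 it held for Nbl1 alone among members, against 1.62% of genes. For Nbl1 the week 6 difference minus the later one was -1.48 on the log2 scale (SE 0.60), with a limma adjusted p of 0.999. The difference between the saline pools enters this term, and for Nbl1 it was -0.95 (Saline-w10 minus Saline-w6). The Nbl1 readings were 84.3 in TNBS-w6 and 93.9, 170.3 and 112.9 in TNBS-w8, TNBS-w10 and TNBS-w12.

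Other genes of the pathway were followed with a list of 47 symbols, of which 28 were on the array and 13 measured. None was 2-fold higher or lower in any of the 4 comparisons, against 3.54%, 3.31%, 1.48% and 1.6% of all genes at weeks 6, 8, 10 and 12. None passed the limma fit, in which no gene of any kind passed. The 13 had median log2 differences of 0.19, 0.11, 0.14 and 0.11 at weeks 6, 8, 10 and 12, beside -0.02, -0.07, 0.00 and 0.00 over all genes. The most different were Fstl1, a secreted follistatin-like protein, 1.80-fold higher at week 6, and Tgif1, a repressor of Smad transcription, 1.63-fold lower at week 8. Itgav, the integrin alpha chain that releases latent TGF-beta, was 1.57-fold higher at week 6, with 1278 in TNBS-w6 against 782 and 848 on the Saline-w6 arrays. Bgn, a matrix proteoglycan, was 1.52-fold higher at week 10, although Saline-w6 was above both. The 17 members had medians of -0.18, -0.12, 0.16 and -0.13.

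Transcripts known to respond to TGF-beta or BMP were followed with a list of 40, of which 36 were on the array and 25 measured. At week 6 1 of 25 was 2-fold higher (Timp1), against 2.55% of all genes measured. At week 10 1 of 25 was 2-fold lower (Timp1 again), against 0.649%. None passed the limma fit, in which no gene of any kind passed. Medians were 0.13, 0.22, 0.22 and -0.13 at weeks 6, 8, 10 and 12. Timp1, a protease inhibitor, had 476.7 in TNBS-w6 but 69.8 and 286.5 on both arrays of the Saline-w6 pool, so both arrays of 1 RNA differed more than 2-fold. At week 10 it lay under the floor and was at least 2.72-fold lower than Saline-w10. Sparc and Col4a1, matrix genes, were 1.95-fold and 1.82-fold higher at week 6, and Ccn2, a matricellular growth factor, was 1.90-fold higher at week 8, with 132.5 against 69.6. Ccn2 reached the signal minimum through a TNBS pool alone. Of the 25 responsive transcripts 9, 6, 8 and 19 lay below saline at weeks 6, 8, 10 and 12, and of the 17 members 11, 11, 5 and 11. Over all 4316 genes the numbers below saline were 2270, 2440, 2183 and 2142.

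Fibroblast and matrix markers (9 of 11 measured, with Vim under 50 throughout) had medians of 0.52, 0.24, 0.28 and -0.09 at weeks 6, 8, 10 and 12. Their sum was 7260, 5505, 5008 and 4824 in the TNBS pools of weeks 6, 8, 10 and 12, against 5746, 5268 and 4504 on the saline arrays. It was highest in the week 6 pool, in which Nbl1 had its lowest reading, and the part of these cells in the readings was not tested.

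**Figure D4:**
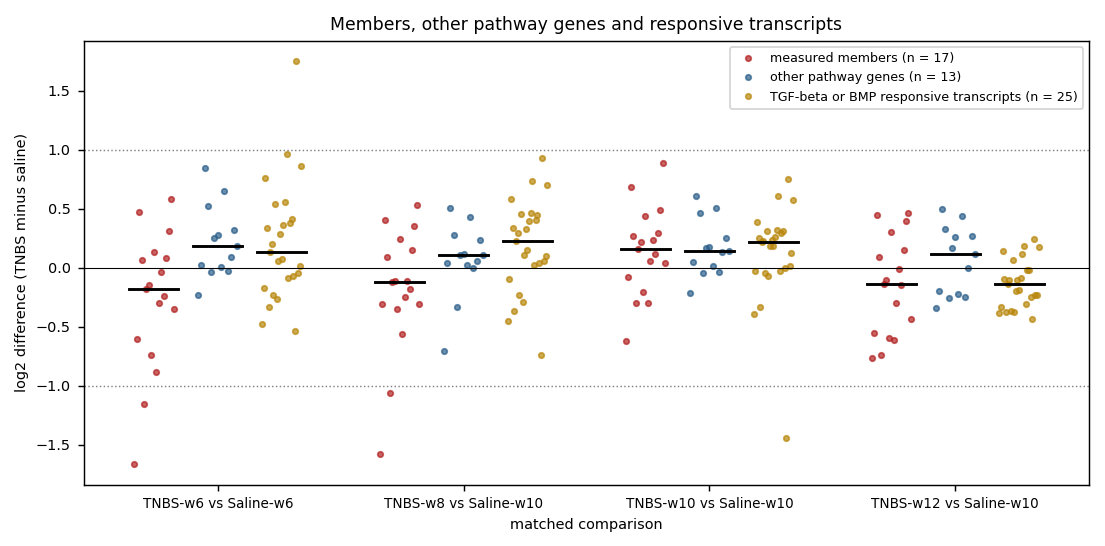
Log2 differences (TNBS minus matched saline) of the measured members (17), other pathway genes (13) and TGF-beta or BMP responsive transcripts (25) in the 4 comparisons, 1 point per gene with the median as a black bar and 2-fold dotted. The lowest member at week 6 is Nbl1 (-1.66), and the highest and lowest responsive transcript is Timp1, at 1.75 in week 6 and -1.44 in week 10, where the TNBS reading is at the floor.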

How the data were processed

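RNA pooled over the mice of each group was hybridised to Affymetrix arrays. The deposited values are signal intensities per probe set on a linear scale, which the authors computed with Microarray Suite 5.0 (MAS5), bringing every array to the same target signal (150), per the labels' descriptions. The genome build and annotation are not given in the sources used here. Of 12488 probe sets, 66 controls were left out, and 10833 had 1 symbol in the platform annotation of 2016, 396 several and 1193 none. Probe sets with several symbols, among them 1 shared by Cers1 and Gdf1, were not named. Entrez identifiers of 10817 were found in RefSeq (GRCm38.p6), which was used for symbols and promoters only.

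Values under 50 were set to 50, log2 was taken, both Saline-w6 arrays were averaged, the probe set with the highest mean stood for a gene, and genes whose highest pool reached 100 were kept (4316). Log2 differences were called at 2-fold. Models used limma 3.58.1 in R 4.3.3 (eBayes with trend, two-sided p-values, Benjamini-Hochberg adjustment over all genes fitted). They had 3 residual degrees of freedom for the pooled model and 2 for the interaction. Only the pooled model was tried on simulated data. In the interaction fit 8 genes without residual spread were left out. The number of arrays limits the precision, since no group has replicate pools, and the p-values do not cover the variation among animals.

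Members, roles and lists were chosen with earlier results of these data known. Every measured member is named, and of the pathway and responsive lists the 4 with the largest difference. The comparison of non-overlapping arrays was added after seeing the data. Alternatives were other floors, log2(value + 50), no signal minimum, equal medians, quantile normalization, the mean of probe sets, the other saline pool and left-out arrays or pools. With the mean of probe sets 14 members in place of 17 were measured.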

Additional observations from a re-analysis of the deposited data

Results flagged for a closer look

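Eng, Smad1 and Smad7 had a week 6 TNBS pool on one side of saline and all 3 later TNBS pools on the other. For Eng the week 6 difference exceeded the later one by 0.67 on the log2 scale (SE 0.44), for Smad7 by 0.31 (SE 0.43), and for Smad1 it was lower, at -0.49 (SE 0.37). The limma interaction term gave an adjusted p of 0.999 for each of these. The second Smad1 probe set was at 0.01 at week 6, so it lay on the same side as later. Against the other saline pool Smad7 changed sides at all 4 times. It also did so at week 10 with equal array medians (0.055), and at week 6 against the first Saline-w6 array alone (-0.12).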

How the results depend on the processing

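No paired analysis was possible because each group is a single pool and the labels number only both arrays of the Saline-w6 pool. At week 6 the 2 members called became 1 (Nbl1) under log2(value + 50) and 0 against the later saline pool, and stayed at 2 to 2 without either Saline-w6 array. At week 8 the 2 called became 1 with a floor of 100 (Ltbp4) and 1 with log2(value + 50), equal array medians or quantile normalization (Acvr2b each time), and 4 against the week 6 saline pool. At week 10 the count of 0 became 1 with equal array medians (Smad4) and 1 against the week 6 saline pool (Bmpr1a), and at week 12 it became 3 against that pool. Of these, Bmpr1a passed the signal minimum through TNBS-w10 alone and Ltbp3, at week 12, through Saline-w6 alone. The 3 members with non-overlapping arrays became 1 with equal array medians (Bmpr1a), 2 with a floor of 100 (Smad4, Tgfb1i1) and 2 with quantile normalization (Bmpr1a, Tgfb1i1). Both limma fits called 0 members under each alternative run. Whole pools were left out of the pooled fit only (each TNBS pool and Saline-w10), and the interaction was refitted without single Saline-w6 arrays only. Without TNBS-w12 the pooled fit called 3 genes, none of them a member. Of 648 log2 differences of single members under processing settings and left-out arrays, 637 moved by less than 0.29, the SD between repeat arrays. Of 68 against the other saline pool 36 did. Part of the 648 could not move, so the share of 637 overstates stability. Dropping the signal minimum changes no member's value, and averaging probe sets changes none that has 1 probe set. None of the differences called at 2-fold changed sign. Equalising array medians shifted the middle of all genes by 0.17 (log2) at week 8 and 0.13 at week 10, and the split of all genes 2-fold higher and lower was 113 and 33 in place of 66 and 77 at week 8, and 64 and 17 in place of 36 and 28 at week 10. These changes follow from the rescaling itself, since the median signals were 58.1 in Saline-w10, 51.7 in TNBS-w8 and 53 in TNBS-w10. Why the array medians differed was not tested. Signals near the floor (Bmpr1a, Ltbp3, Acvr2b at week 8) limit the size that a difference can take.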

Other observations

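The saline pools, without TNBS, differed for several genes, here named after their values were seen. In Saline-w10 against Saline-w6 the log2 difference was -0.95 for Nbl1, -0.88 for Bgn, -0.86 for Tgfb3 and -0.67 for Col6a2. Of the 17 members 12 lay below 0, as did 8 of 9 fibroblast and matrix markers, against 2075 of 4316 genes. In the same comparison 6 of 8 smooth muscle markers and 10 of 14 colon epithelium markers lay above 0. The transcription factor Sp1 (1.04) and the coactivator Crebbp (0.80) were higher. The pools differ in time since the enemas and in the beta-actin ratio, which cannot be told apart. The Gapdh ratio was 0.912 and 0.942 on the Saline-w6 arrays and 0.897 in Saline-w10.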
